A study of Homo sapiens with 8 samples.

Results

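Open chromatin was described around GFI1 and GFI1B, a pair of related genes, in U-937 cells. The members were the called regions that overlapped either gene body or the 100 kb on each side of it. There were 60 such regions of 161291 in the whole series, 34 around GFI1 and 26 around GFI1B. A region here is a stretch covered by overlapping peaks of any of the 4 peak lists. U-937 is an established human acute myeloid leukaemia line with monocytic features, grown in serum. Cells were sampled after 24 h with the vehicle DMSO, with ATRA at 0.1 µM, with Corin (CORIN in the labels) at 0.1 µM, or with both at 0.1 µM each (ATRA/CORIN). All 4 groups are the same line in the same medium, and no second line was analysed here. ATAC-seq, in which a transposase cuts accessible DNA, was run on 8 samples, 2 per group, and each group is represented by 1 peak list in which its 2 samples are already combined. No spread between samples can therefore be computed, no difference was tested, and all comparisons between lists are descriptions of 1 list against another.

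GFI1 and GFI1B encode zinc finger repressors that bind nearly the same DNA motif. Each carries a short N-terminal SNAG domain that binds LSD1 (KDM1A), a histone demethylase, and brings the CoREST complex with its HDAC1 and HDAC2 deacetylases to target genes. GFI1 is best known in granulocyte development and in the restraint of monocyte genes, and GFI1B in red cell and platelet development, and both proteins are known to bind and repress their own genes and each other's. ATRA, all-trans retinoic acid, is a ligand of the retinoic acid receptors and drives myeloid cells to differentiate. Corin is a dual inhibitor built to block the LSD1 and HDAC activities of CoREST, the complex that the SNAG domain recruits. The question the 4 groups pose for these genes is how accessibility at their starts and at distal regions differed with either compound and with both.

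GFI1 (ENSG00000162676.13) lies at chr1:92473043-92486925 on the minus strand in hg38, and its main transcript starts at 92486925. The window around it spans 213.9 kb and also holds the end of RPAP2 downstream and the end of EVI5 upstream. GFI1B (ENSG00000165702.15) lies at chr9:132944000-132991687 on the plus strand, with the main transcript starting at 132978694. Its window of 247.7 kb is more crowded, with TSC1, SPACA9 and the first part of AK8 upstream and GTF3C5, CEL and the pseudogene CELP downstream. A first GFI1B start lies farther upstream, at 132944000, inside the first part of the oppositely oriented TSC1 gene. Regions are named below by the distance of their strongest summit from the main start of the member gene.

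The sequences below are 200 bases of the hg38 plus strand centred on the strongest summit of a region. The first 3 are the regions within 1 kb of member starts whose windows hold no annotated UTR, and the next 2 are strong distal regions of each window. For GFI1B the strongest distal region lies at the GTF3C5 start over a UTR, so the next strongest is shown. The last 3 were chosen after their values were seen, as examples of regions whose folds differed between lists. Capitals mark matches to the motifs named after the sequences.
GFI1 start, chr1:92486931-92487130: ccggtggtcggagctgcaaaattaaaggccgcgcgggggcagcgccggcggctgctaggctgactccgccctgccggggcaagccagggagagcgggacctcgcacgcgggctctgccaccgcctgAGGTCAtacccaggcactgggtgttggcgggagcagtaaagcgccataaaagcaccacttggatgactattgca
GFI1B near the main start, chr9:132977746-132977945: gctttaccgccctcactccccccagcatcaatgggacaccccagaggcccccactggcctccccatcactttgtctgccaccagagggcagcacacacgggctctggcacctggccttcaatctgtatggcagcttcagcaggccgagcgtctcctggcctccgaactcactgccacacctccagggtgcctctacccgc
GFI1B upstream start, chr9:132944841-132945040: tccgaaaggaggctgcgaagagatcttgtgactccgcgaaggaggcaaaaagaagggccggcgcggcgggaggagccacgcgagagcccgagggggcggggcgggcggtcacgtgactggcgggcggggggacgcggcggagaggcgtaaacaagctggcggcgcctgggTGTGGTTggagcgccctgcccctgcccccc
GFI1 26.9 kb downstream, chr1:92459933-92460132: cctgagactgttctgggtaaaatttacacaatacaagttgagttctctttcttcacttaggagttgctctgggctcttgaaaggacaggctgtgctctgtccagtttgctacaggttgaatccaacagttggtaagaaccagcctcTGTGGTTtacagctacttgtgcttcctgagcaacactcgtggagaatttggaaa
GFI1B 43.8 kb downstream, chr9:133022406-133022605: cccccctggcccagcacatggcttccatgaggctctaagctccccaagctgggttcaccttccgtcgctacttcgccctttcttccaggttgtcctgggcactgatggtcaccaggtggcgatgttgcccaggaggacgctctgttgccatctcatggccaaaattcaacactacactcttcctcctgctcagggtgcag
GFI1 39.7 kb downstream, chr1:92447148-92447347: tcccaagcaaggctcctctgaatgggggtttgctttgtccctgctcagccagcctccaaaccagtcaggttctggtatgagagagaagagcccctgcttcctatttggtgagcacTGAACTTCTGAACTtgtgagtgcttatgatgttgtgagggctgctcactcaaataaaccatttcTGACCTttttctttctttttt
GFI1 50.3 kb upstream, chr1:92537100-92537299: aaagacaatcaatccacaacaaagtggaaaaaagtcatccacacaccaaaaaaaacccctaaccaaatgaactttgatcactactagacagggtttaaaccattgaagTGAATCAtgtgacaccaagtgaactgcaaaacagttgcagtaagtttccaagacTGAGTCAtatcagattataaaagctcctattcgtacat
GFI1B 25.9 kb downstream, chr9:133004496-133004695: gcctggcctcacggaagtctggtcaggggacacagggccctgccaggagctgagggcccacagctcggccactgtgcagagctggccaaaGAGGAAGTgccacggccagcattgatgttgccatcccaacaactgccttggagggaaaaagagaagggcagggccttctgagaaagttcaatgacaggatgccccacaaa

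Both strands of each window were searched for 11 motifs. The motif of the GFI1 and GFI1B proteins themselves was searched as AATCACNGC, and the core that lies inside it as AATCAC. For myeloid factors, PU.1 was searched as GAGGAAGT and C/EBP as TTGCNNAA, while for the factor RUNX the letters were TGTGGTT. For AP-1, the dimer of JUN and FOS proteins, TGANTCA was used. For the erythroid GATA factors it was AGATAA. The single site of the retinoic acid receptors was searched as AGGTCA, and a looser form of it was searched as direct repeats with spacers of 1, 2 and 5 bases, so a single site can lie inside a repeat. The window 39.7 kb downstream of GFI1 holds a direct repeat with a spacer of 2 on its minus strand, written TGAACTTCTGAACT on the plus strand at chr1:92447263-92447276. The repeat's centre is 21.5 bases from the ATRA summit. Among all 161291 windows of the series 0.17% hold that repeat, and 1 of the 60 member windows does. The single receptor site was found in 5 of 34 GFI1 windows and in 2 of 26 GFI1B windows, against 13.0% of all windows.

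The full GFI1/GFI1B motif was in none of the 34 GFI1 windows and none of the 26 GFI1B windows, and in 0.627% of all windows. Its core was in 1 GFI1 window, 110.4 kb downstream in an RPAP2 intron, and in no GFI1B window, against 7.96% of all. AP-1 matched 6 of 34 GFI1 windows and 1 of 26 GFI1B windows (12.2% of all), and the window 50.3 kb upstream of GFI1 holds 2 matches. C/EBP matched 7 and 3 windows (14.5% of all), RUNX 4 and 2 (8.27%), PU.1 2 and 1 (6.73%) and GATA 0 and 1 (8.02%). Direct repeats with spacers of 1 and 5 were in no member window, against 0.0719% and 0.0905% of all. In the RefSeq table of promoters (GRCh38.p14, 250 bases before to 50 after a start) 5 entries matched the members, 3 for GFI1 and 2 for GFI1B. The entry at the main GFI1 start holds the single receptor site shown in capitals above, which 13.8% of 35116 promoters hold. A match describes letters in a window and does not show that a factor was bound.

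Across the series the lists held 189896 to 222491 peaks, which merged into 94917 to 116563 regions per list. Read totals per sample were not used here, so depth is described by the background that the caller used. The most frequent background was 12.8 with DMSO, 9.12 with ATRA, 13.1 with Corin and 13.9 with ATRA/CORIN, in overlapping fragments or fragment ends. The ATRA list thus had the lowest background and the highest median fold per region, 7.61, against 5.05 with DMSO, 5.03 with Corin and 6.03 with ATRA/CORIN, and the part of this in the members' ATRA values was not tested. Fold, here and throughout, is the authors' own enrichment of a peak over its local background. It is set side by side between lists only with the median ratio of all regions beside it, which was 1.26 for ATRA over DMSO, 0.943 for Corin over DMSO and 1.02 for ATRA/CORIN over DMSO. Counts of overlapping fragments or fragment ends were solved from fold and p and are called fragments below for short. Which unit was counted was not determined here. Intervals on these counts treat each one as independent and cover counting error only.

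Called regions covered 11.4% of the GFI1 window and 8.43% of the GFI1B window. Of its 34 regions 17 (50%) were called in all 4 lists, and of the 26 GFI1B regions 11 (42.3%) were, against 41.1% of all regions. Among 20033 protein-coding genes with the same flanks the median was 24 regions and 10 in all 4 lists, and 73.7% had fewer regions than GFI1 and 53.7% fewer than GFI1B. The lists held 22 (DMSO), 27 (ATRA), 25 (Corin) and 23 (ATRA/CORIN) regions in the GFI1 window. In the GFI1B window they held 25, 20, 15 and 18. The whole series held 116563, 113914, 101851 and 94917 regions in the same order. Fewest GFI1B regions were thus called with Corin, a list that was also shorter than the DMSO list over the whole series. The GFI1 window held more with Corin than with DMSO.

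**Figure D1:**
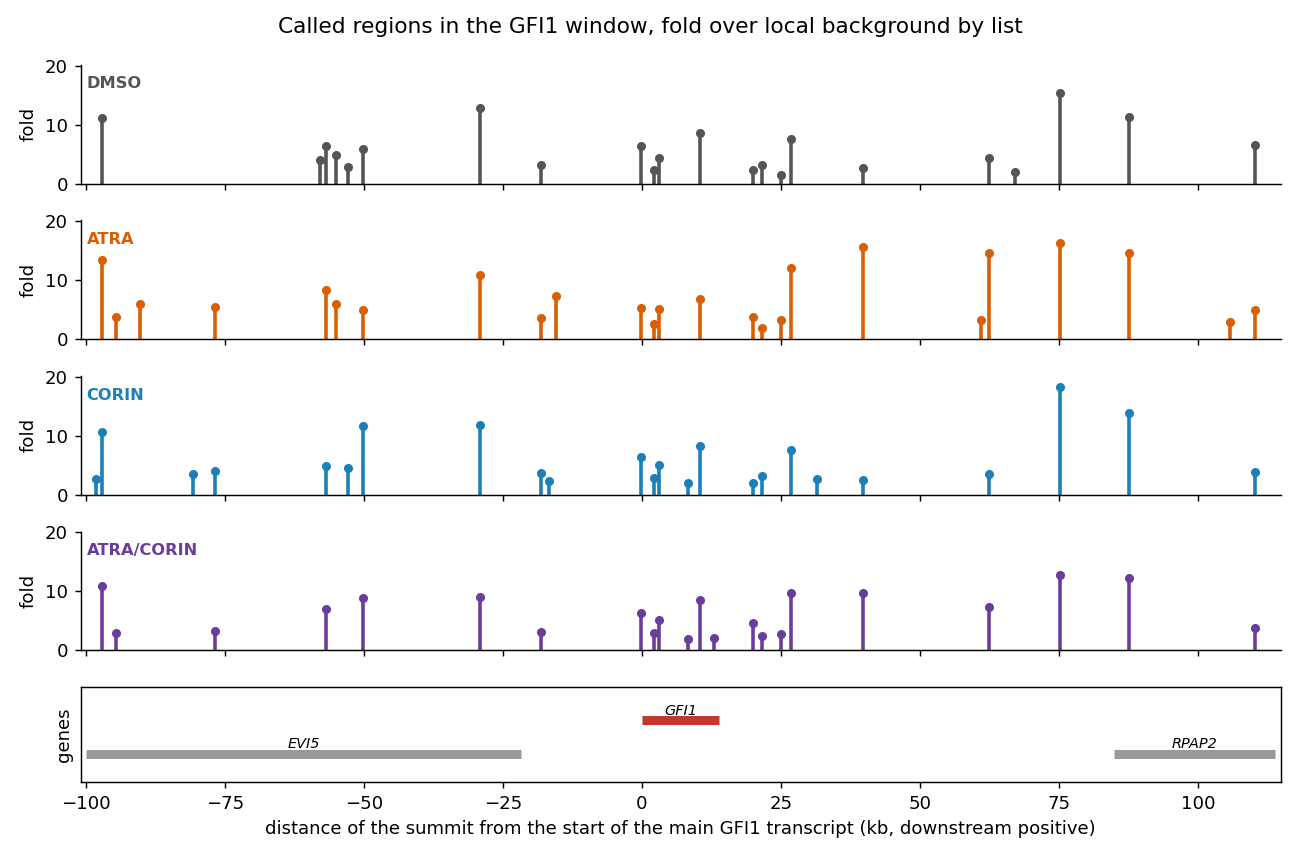
Regions called in the GFI1 window in each of the 4 lists. The x axis is the distance of the summit from the main GFI1 start in kb, downstream positive, the height of each stem is the authors' fold over local background, and gene bodies are drawn at the bottom. The regions at the start and 10.4 kb downstream in the gene are present in every list, and the stems 39.7 and 62.4 kb downstream are tall in the ATRA list.

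The 3 regions within 1 kb of GFI1 starts were called in all 4 lists. No region of any list lay within 1 kb of the GFI1 start at 92480485. The region that covers the main start, 2046 bp long with its summit 0.106 kb upstream, had folds of 6.30 with DMSO, 5.36 with ATRA, 6.38 with Corin and 6.29 with ATRA/CORIN. The fragments over its summit numbered 995, 991, 901 and 982. Its local background was 12.3, 20.2, 10.7 and 11.1 times the most frequent background of the list. The folds at this start are thus taken over a high local background, whose cause was not tested. The 3 regions within 1 kb of GFI1 starts all hold annotated exon or UTR of the gene.

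The region at a shorter transcript's start, 3.02 kb downstream, had folds of 4.37, 5.12, 4.99 and 5.21 in the order DMSO, ATRA, Corin and ATRA/CORIN. The smaller region 2.20 kb downstream had 2.32, 2.50, 2.80 and 2.94. Both were lowest with DMSO, and their ratios to DMSO, between 1.08 and 1.27, were between the 5th and 95th percentiles of all regions. Within the gene body 1 more region was called in all 4 lists, 10.4 kb downstream over a coding exon, with folds of 8.56, 6.74, 8.35 and 8.50. Its ATRA fold was 0.788 times the DMSO fold, and 97.1% of the 16988 regions of that strength had a higher ratio. The ATRA/CORIN fold was 1.26 times the ATRA fold, a ratio exceeded by 2.41% of regions of that strength. Scaled by the most frequent background of each list in place of the local one, these ratios were 1.07 and 0.863. The medians of all regions were then 1.51 and 0.650. Both ratios thus changed sides of 1 with the scaling but not sides of the median of all regions. Of the 6 regions in the gene body 4 were in all 4 lists, 1 was called with Corin and ATRA/CORIN and 1 with ATRA/CORIN alone. None of the 6 was called in the DMSO or ATRA list alone.

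Most summits stayed in place. Over the 17 GFI1 regions in all 4 lists the summits of the 4 lists lay within a median of 26 bp of each other (range 5 to 386), with 14 of the 17 within 100 bp. For the 11 GFI1B regions the median was 22 bp (range 4 to 416), with 8 within 100 bp. At the main GFI1 start they spread over 15 bp and at the region 26.9 kb downstream over 7 bp. Among the exceptions, the summits spread over 164 bp in the region 50.3 kb upstream of GFI1 and 281 bp in that 21.6 kb downstream. At GFI1B they spread over 325 bp in the region 33.8 kb upstream and 301 bp in that 110.8 kb downstream. In such regions the values compared can come from different peaks of the merged region.

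The highest fold ratios to DMSO in the GFI1 window were at distal regions downstream of the gene, with ATRA. The strongest of the GFI1 window, 26.9 kb downstream in intergenic DNA at chr1:92459418-92461013, had folds of 7.54 with DMSO, 12.0 with ATRA, 7.68 with Corin and 9.66 with ATRA/CORIN. Its −log10 p was 377, 885, 238 and 517, and in the ATRA list it ranked in the top 4.98% of regions. The ATRA fold was 1.60 times the DMSO fold, and 1.80% of the 16988 regions in the same DMSO strength class (one of 5 equal classes by −log10 p) had a higher ratio. By fold DMSO and Corin were level there, and both lists with ATRA stood above them. Fragments over the summit numbered 743 (691 to 798), 1286 (1217 to 1358), 459 (418 to 503) and 858 (802 to 917), with Corin lowest. Over the most frequent background of each list the ratios to DMSO were 2.43 with ATRA, 0.602 with Corin and 1.06 with ATRA/CORIN, so by that measure Corin lay below DMSO and ATRA/CORIN near it.

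The region 39.7 kb downstream, at chr1:92446664-92447666, is the one that holds the direct repeat with a spacer of 2. It was weak with DMSO (fold 2.64, top 83.0% of the list) and Corin (2.48, top 87.1%), and reached 15.6 with ATRA and 9.77 with ATRA/CORIN. The fragments over its summit numbered 42 with DMSO (95% Poisson interval 30.3 to 56.8), 208 with ATRA (181 to 238), 34 with Corin (23.5 to 47.5) and 145 with ATRA/CORIN (122 to 171). These intervals cover counting error only, on counts not scaled between lists, and the region was chosen for its values. They therefore test no difference between lists.

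For that region the ATRA fold was 5.89 times the DMSO fold. There 0.781% of the 17019 regions in the same DMSO strength class had a higher ratio, and the median of that class was 1.59. With ATRA/CORIN the ratio to DMSO was 3.70, exceeded by 0.535% of its class, and the ratio to Corin was 3.95, exceeded by 0.499%. The fold with ATRA/CORIN was 0.628 times that with ATRA, close to the median of 0.682 for regions of that strength. The contrast with ATRA was thus seen in both pairs of lists that differ by ATRA, which share no list. This region, like those 62.4, 25.0 and 20.1 kb downstream and 50.3 kb upstream below, was chosen for description after its values were seen.

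Further regions on the same side were also higher with ATRA. The region 62.4 kb downstream had folds of 4.35 with DMSO, 14.6 with ATRA, 3.47 with Corin and 7.43 with ATRA/CORIN. The region 25.0 kb downstream had 1.47 with DMSO, 3.21 with ATRA and 2.77 with ATRA/CORIN and was not called with Corin. The region 20.1 kb downstream had 2.36, 3.79, 2.08 and 4.67. The ATRA ratios to DMSO of 3.36, 2.19 and 1.60 were exceeded by 9.64%, 28.5% and 49.4% of regions of that strength, so the last was at its class median of 1.59. At all 3 both lists with ATRA were higher than the lists without it in which the region was called. Against them stands the region 21.6 kb downstream, where the fold was 3.18, 1.85, 3.24 and 2.51, lowest with ATRA, and 98.2% of regions of that strength had a higher ATRA ratio.

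Farther from the gene lay the next strongest regions. The region 75.2 kb downstream, with an AP-1 match 1 base from its summit, had folds of 15.4, 16.4, 18.3 and 12.7. Its fragments over the summit numbered 349 (313 to 388), 177 (152 to 205), 355 (319 to 394) and 195 (169 to 224). Both lists with ATRA were thus lower by fragments, on counts not scaled between lists. By fold ATRA/CORIN was 0.694 times Corin there. The region 87.6 kb downstream, in an exon of RPAP2, had folds of 11.3, 14.6, 13.9 and 12.3 and was nearest to level.

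Upstream of GFI1, in introns of EVI5, a different order appeared. The region 50.3 kb upstream, whose window holds 2 AP-1 matches, had folds of 5.80 with DMSO, 4.94 with ATRA, 11.7 with Corin and 8.84 with ATRA/CORIN. Its fragments numbered 79 (62.5 to 98.5), 49 (36.3 to 64.8), 221 (193 to 252) and 131 (110 to 155) in the same order. The Corin fold was 2.02 times the DMSO fold, a ratio exceeded by 2.12% of the 16141 regions of that strength. Both lists with Corin were above both without it, by fold and by fragments. The ATRA/CORIN fold was 1.79 times the ATRA fold (3.09% higher), so a higher value with Corin was seen in both pairs of lists that differ by Corin. The ATRA value is from a peak with its summit at 92537038, against 92537199 to 92537202 in the other lists. The pair with ATRA thus compares different peaks of the merged region.

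The strongest GFI1 region gained with ATRA lay 15.5 kb upstream, with a fold of 7.31, and was in no other list. The strongest one gained with Corin, 76.8 kb upstream, was called in all 3 treated lists (5.44, 4.03 and 3.35). The strongest gained with ATRA/CORIN, 94.7 kb upstream, was also called with ATRA (3.78 and 2.97). The strongest lost with ATRA, 57.9 kb upstream, was a DMSO region of fold 3.99. The strongest lost with Corin and with ATRA/CORIN was 1 region, 55.1 kb upstream, with folds of 4.82 with DMSO and 5.97 with ATRA. All of these lie upstream of the gene, and 4 of the 5 within EVI5.

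**Figure D2:**
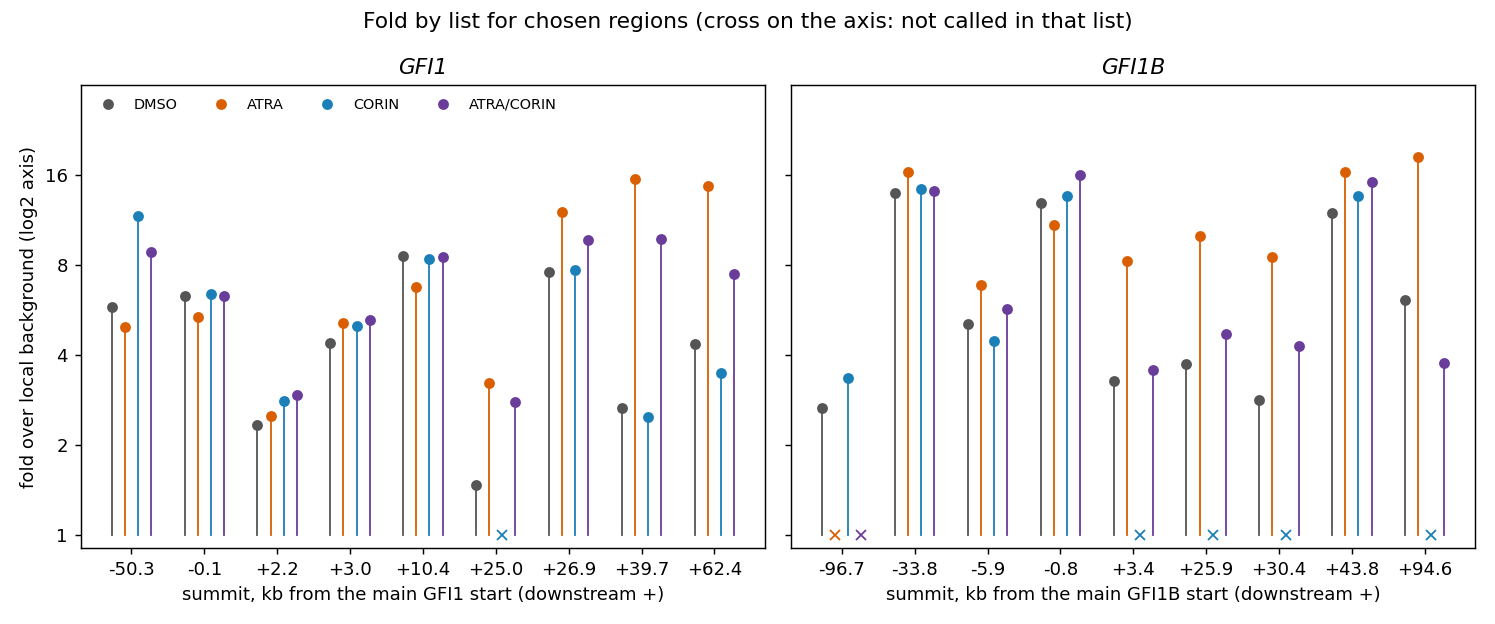
Fold over local background, on a log2 axis, for 9 regions of each window (those in the gene body called in all 4 lists, those without a call with Corin alone, the strongest intergenic one, and those with the highest ratios to DMSO) in the 4 lists. The x axis gives the summit's distance from the main start in kb, and a cross on the axis marks a list in which the region was not called. At GFI1 the regions 26.9, 39.7 and 62.4 kb downstream are highest with ATRA and the region 50.3 kb upstream is highest with Corin. At GFI1B 4 regions lack a call with Corin.

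Regions within 1 kb of the main GFI1B start and of the starts farthest upstream were called in every list. No region of any list lay within 1 kb of the GFI1B starts at 132949690 and 132986679. The region nearest the main start, at chr9:132977312-132978165, ends 486 bp short of the nearest annotated start and has its summit 0.848 kb upstream of the main one. It had folds of 12.9 with DMSO, 10.9 with ATRA, 13.6 with Corin and 16.0 with ATRA/CORIN. Fragments over its summit numbered 268 (237 to 302), 239 (210 to 271), 225 (197 to 256) and 327 (293 to 364). The fold with ATRA/CORIN was 1.47 times that with ATRA, and 0.907% of the 15769 regions of that strength had a higher ratio. Scaled by the most frequent background of each list in place of the local one, the same ratio was 0.895, where the median of all regions was 0.650. The value thus lies above or below 1 depending on the scaling, and above the median of all regions under both.

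The region at the upstream GFI1B starts, 33.8 kb from the main start, also covers a start of TSC1, so its signal cannot be given to either gene. It had folds of 13.9, 16.3, 14.3 and 14.2, and its highest and lowest differed by less than the median ratio of ATRA over DMSO. The region 5.89 kb upstream of the main start, over an exon with UTR, was the other gene body region in all 4 lists, with folds of 5.07, 6.86, 4.46 and 5.69. Its neighbour 4.78 kb upstream had 3.57, 4.78 and 2.74 and was not called with ATRA/CORIN. Of the 8 regions in the GFI1B gene body 6 were called with DMSO, 7 with ATRA, 4 with Corin and 4 with ATRA/CORIN. Over the whole series these lists held 116563, 113914, 101851 and 94917 regions, so both lists with Corin were shorter there too.

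**Figure D3:**
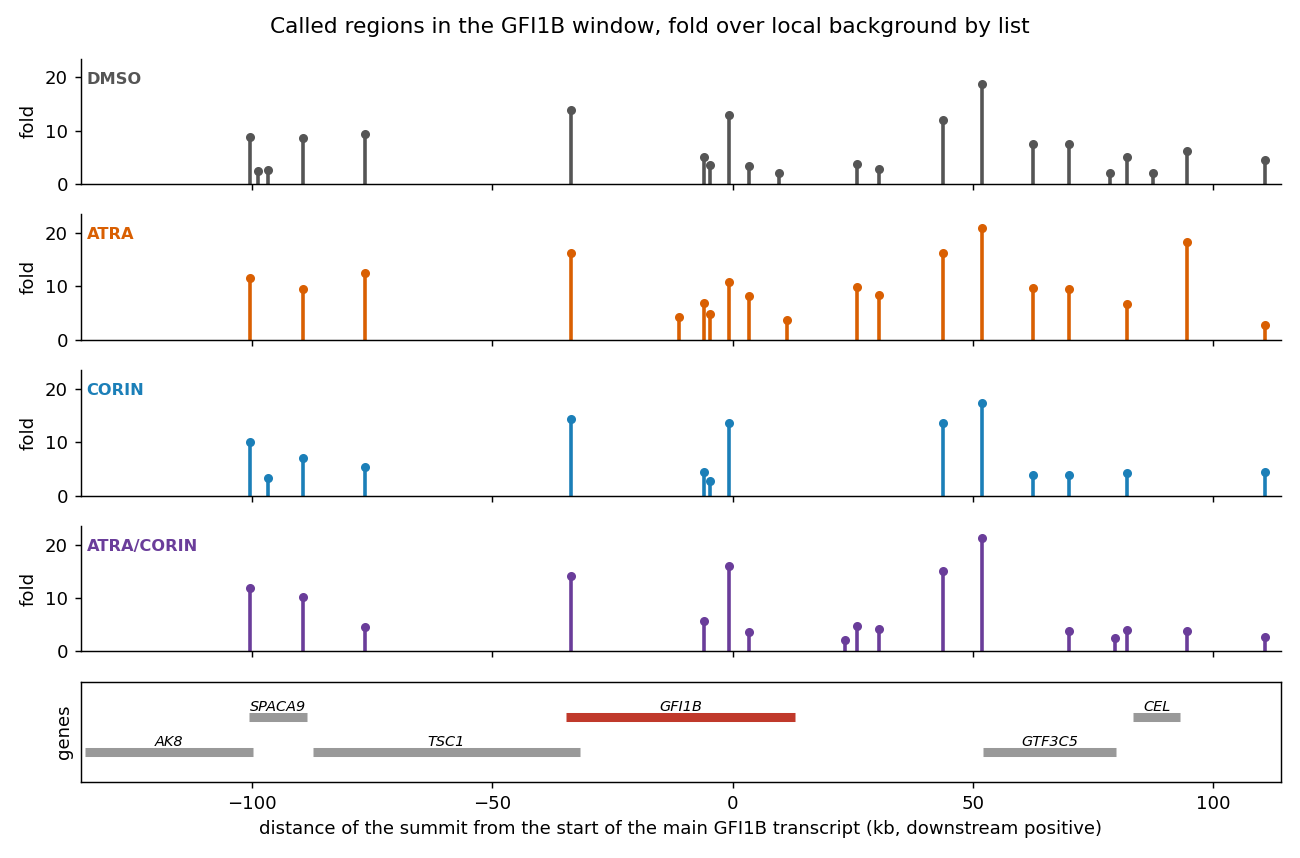
Regions called in the GFI1B window in each of the 4 lists, drawn as for GFI1, with distance from the main GFI1B start in kb and fold as the height. The regions 0.848 and 33.8 kb upstream of the main start are present in every list, and the Corin list has no stem 3.43, 25.9, 30.4 or 94.6 kb downstream, where the ATRA list has tall ones.

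Calls with DMSO, ATRA and ATRA/CORIN but not with Corin were found for 4 GFI1B regions, 15.4% of the window's 26, against 3.67% of all regions. The same pattern held for 1 of the 34 GFI1 regions. These 4 were chosen for description after their values were seen, and signal under the calling limit of the Corin list cannot be seen in these data. They lie 3.43 kb downstream in a GFI1B intron, 25.9 and 30.4 kb downstream in intergenic DNA, and 94.6 kb downstream between CEL and CELP.

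In the intron, 3.43 kb downstream, the fold was 3.27 with DMSO, 8.22 with ATRA and 3.57 with ATRA/CORIN. At 25.9 kb it was 3.72, 9.96 and 4.71. At 30.4 kb it was 2.83, 8.47 and 4.28. The ATRA list was highest at each, and the list with both compounds was closer to the DMSO value than to the ATRA value. The window 25.9 kb downstream, printed above, holds a PU.1 match with its centre 6.5 bases from the summit, and that 30.4 kb downstream holds a C/EBP match.

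The region 94.6 kb downstream showed the widest contrast, with folds of 6.09 with DMSO, 18.3 with ATRA and 3.75 with ATRA/CORIN. Its fragments numbered 83 (66.1 to 103), 188 (162 to 217) and 55 (41.4 to 71.6). The ATRA fold was 3.01 times the DMSO fold, exceeded by 5.01% of regions of that strength. The ATRA/CORIN fold was 0.205 times the ATRA fold, and 1.31% of the 15769 regions of that strength had a lower ratio. For the other 3 the ATRA ratios of 2.52, 2.68 and 3.0 were exceeded by 21.1%, 18.2% and 13.4% of regions of that strength, so weak regions with such ratios were common in the series.

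Away from the gene, the strongest region of the window was at the start of GTF3C5, 51.9 kb downstream, with folds of 18.7, 21.1, 17.4 and 21.4. The intergenic region 43.8 kb downstream, which lies ahead of that gene, had 11.9, 16.3, 13.6 and 15.1. The region 100.4 kb upstream, at the shared start of AK8 and SPACA9, had 8.72, 11.6, 10.1 and 11.8. All 3 were in every list, and at each the DMSO or Corin value was the lowest.

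The strongest GFI1B region gained with ATRA, 11.2 kb upstream in an intron of the long transcript, had a fold of 4.35 and was in the ATRA list alone. No region was gained with Corin. With ATRA/CORIN the strongest gain, 79.6 kb downstream in GTF3C5, had a fold of 2.56. The strongest lost with ATRA, 96.7 kb upstream in SPACA9, had folds of 2.66 with DMSO and 3.34 with Corin. The strongest lost with Corin was the region 94.6 kb downstream described above, and the strongest lost with ATRA/CORIN lay 62.4 kb downstream in a GTF3C5 intron (7.39, 9.79 and 3.89 in the other 3 lists).

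Counted over the windows, GFI1 had a smaller share of regions lost against DMSO than all regions with every treatment, and GFI1B had a smaller share gained over DMSO. A gained region is one of the treated list with no overlap of at least 1 bp in the reference list, and a lost region the reverse. With ATRA against DMSO, 7 of 27 GFI1 regions were gained and 2 of 20 GFI1B regions, against 23.1% of all. Lost were 3 of 22 and 5 of 25, against 25.3%. With lists of equal length, 4 of 19 GFI1 regions (21.1%) were lost with ATRA against 18.2% of all. The smaller GFI1 share lost with ATRA thus did not hold in that setting. With Corin, 6 of 25 GFI1 regions and 0 of 15 GFI1B regions were gained (17.7% of all), and 4 of 22 and 10 of 25 were lost (28.5%). The GFI1B share lost with Corin was 40%. It was 6 of 21 (28.6%) against 25.4% of all with −log10 q of at least 5, and 4 of 19 (21.1%) against 19.7% of all with lists of equal length, so it stood near the share of all regions under both.

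With ATRA/CORIN against DMSO, 4 of 23 and 2 of 18 regions were gained (16.7% of all), and 4 of 22 and 9 of 25 were lost (31.5%). Against ATRA alone, 2 of 23 and 2 of 18 were gained (15.5%), and 5 of 27 and 4 of 20 were lost (28.4%). Against Corin alone, 4 of 23 and 6 of 18 were gained (20.6%), and 5 of 25 and 3 of 15 were lost (25.0%). The gains over Corin at GFI1B, 33.3%, include the 4 regions without a Corin call. Comparisons with the same reference share its list and are not independent of each other.

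Gained and lost regions were mostly weaker than those with a counterpart. Medians for gained and lost regions of the whole series are not given here. The 7 GFI1 regions gained with ATRA had a median place in the top 75.6% of their list, against the top 37.1% for those with a DMSO counterpart. The 10 GFI1B regions lost with Corin had a median in the top 82.3%, against the top 41.3% for those kept. For the GFI1B regions called with DMSO alone, 4 in number, the median was the top 95.2%. A loss in these counts is thus mostly a region from the weaker part of the DMSO list. Not all lay near that list's lowest −log10 p of 2.79. With DMSO it was 36.2 for the lost GFI1 region 55.1 kb upstream. For the GFI1B region 94.6 kb downstream, lost with Corin, it was 39.0.

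**Figure D4:**
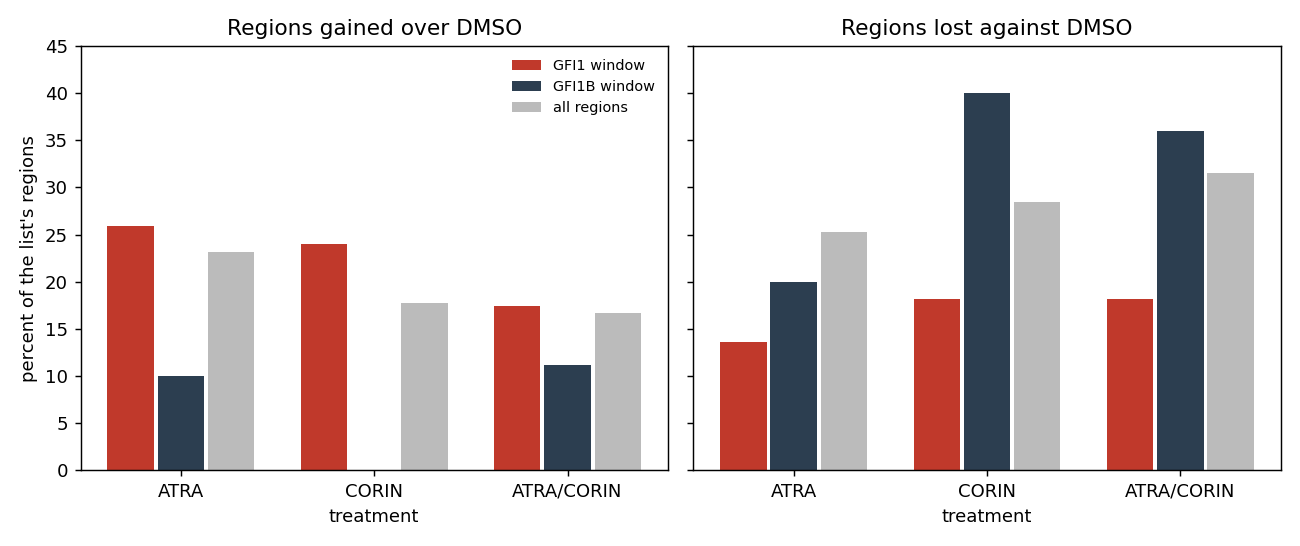
Percent of regions gained over DMSO (left, of the treated list) and lost against DMSO (right, of the DMSO list) for the GFI1 window, the GFI1B window and all regions, for each treatment on the x axis. The GFI1B bar for losses with Corin stands at 40% beside 28.5% of all regions (21.1% beside 19.7% with lists of equal length), and its bar for gains with Corin is at 0.

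Where a region was called in both lists of a pair, its folds were compared, and a ratio more than 1.5 times above or below the median ratio of all such regions was counted. That limit was chosen after the data were seen. For ATRA over DMSO 3 of 19 GFI1 regions and 4 of 17 GFI1B regions were higher (16.6% of all), and 3 and 1 were lower (8.81%). For Corin over DMSO 2 of 18 GFI1 regions and 0 of 14 GFI1B regions were higher (6.35%), and 1 and 3 were lower (10.8%). For ATRA/CORIN over DMSO 4 of 18 and 0 of 15 were higher (8.27%), and 1 and 4 were lower (12.1%). With pileup over the most frequent background in place of fold, GFI1 had 2 higher and 4 lower for ATRA/CORIN over DMSO, so the balance of higher and lower regions turned with the measure.

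The lists with ATRA can also be compared with each other. For ATRA/CORIN over ATRA, where the median ratio was 0.791, 4 of 20 GFI1 regions and 1 of 15 GFI1B regions were higher (7.21% of all), and 1 and 6 were lower (18.1%). The 6 GFI1B regions are 40% of those compared. They are the 4 without a Corin call, a region in TSC1 and a region in GTF3C5. For ATRA/CORIN over Corin, with a median ratio of 1.07, 3 of 19 and 0 of 11 were higher (9.72%), and 1 and 1 were lower (8.98%). The 3 GFI1 regions were those 20.1, 39.7 and 62.4 kb downstream.

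**Figure D5:**
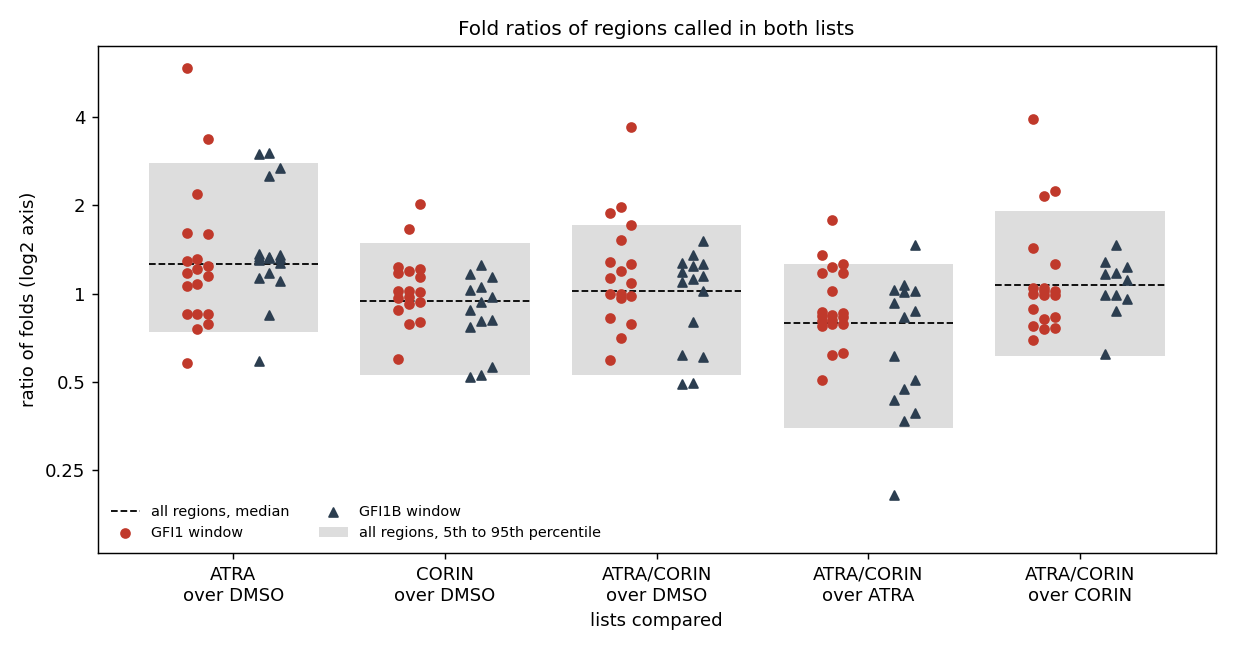
Ratios of folds, on a log2 axis, for regions called in both lists of each of 5 pairs, with GFI1 regions as circles and GFI1B regions as triangles. Grey bars span the 5th to 95th percentile of all regions and dashed lines mark their median. The highest GFI1 circle in ATRA over DMSO (5.89) and in ATRA/CORIN over Corin (3.95) is the region 39.7 kb downstream, and the lowest triangle in ATRA/CORIN over ATRA (0.205) is the GFI1B region 94.6 kb downstream.

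Other genes of the same pathway were counted in windows of the same kind. The list of 9 partners in LSD1-CoREST repression (KDM1A, RCOR1, RCOR3, HDAC1, HDAC2, HMG20B, PHF21A, GSE1 and ZMYM2) had 342 regions, of which 162 (47.4%) were in all 4 lists. Their windows gained 20% with ATRA, 14.0% with Corin and 16.0% with ATRA/CORIN, and lost 25.1%, 22.7% and 28.3%. For KDM1A itself, the demethylase that Corin inhibits, 10 of 27 regions were in all 4 lists, and the lists held 16, 20, 16 and 16 regions. The partner windows thus lay within 4 percentage points of all regions in gains, and no more than 6 points below them in losses.

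A list of 7 other SNAG-domain repressor genes, the Snail, Scratch, INSM1 and OVOL1 genes, had 215 regions with 101 (47.0%) in all 4 lists. Gains were 14.3%, 11.4% and 16.0%, and losses 21.3%, 23.7% and 30.2%, with ATRA, Corin and ATRA/CORIN. The list of 10 genes described as repressed by GFI1 or GFI1B had 339 regions with 169 (49.9%) in all 4 lists. Its gains were 20.9%, 13.6% and 16.6% and its losses 19.8%, 23.7% and 21.8%. These windows differ in size and gene content, and no difference between them and the members was tested.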

How the data were processed

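ATAC-seq of U-937 cells was deposited as 1 narrowPeak list per group, with the 2 samples of each group combined by the authors. The submitters' processing notes name cutadapt, Bowtie2, SAMtools, Picard, MACS2 and hg38, without versions or settings. Per the column layout of the deposited lists, column 7 is a ratio (fold over local background), columns 8 and 9 are −log10 p and q, and the last is the summit's distance in bp from the peak start. That build fits the chromosome lengths, and genes came from GENCODE release 44.

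Overlapping peaks on 24 chromosomes were merged into regions per list and over the 4 lists, with Python 3.11.15, numpy 2.4.6 and scipy 1.17.1, and a counterpart needed an overlap of 1 bp. Merging and overlap were checked against bedtools 2.31.1, with equal counts in 10 of 10 comparisons. A region's values are those of its peak with the highest −log10 p. Pileup and background were solved from p and fold, tested on simulated data, and gave whole pileups (within 0.05) for 99.96% to 99.98% of peaks. Percentages of regions with a higher or lower ratio are within 1 of 5 equal classes of −log10 p in the reference list. Figures used matplotlib 3.10.9.

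Regions named were those within 1 kb of a member's start, those in its gene body in all 4 lists, the 3 strongest others by −log10 p, and the strongest gained and lost per treatment. The members and lists were chosen with earlier results of these data known. Alternatives are in the closing section. With 1 list per group, the depth and spread of single samples are unknown.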

Additional observations from a re-analysis of the deposited data

How the results depend on the processing

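Each group has 1 list made from both samples, so no sample could be left out, and no paired analysis was possible because the lists carry no replicate numbers. Merging peaks within 150 bp, asking the counterpart to cover 50%, a shared −log10 p floor of 2.79 and taking the highest column 7 in a region kept every count within 1.5 times. The floor, the column 7 choice and all fold ratio alternatives were chosen after seeing the data. With −log10 q of at least 5, GFI1B losses were 3 with ATRA, 6 with Corin and 5 with ATRA/CORIN, with 1 gain with ATRA/CORIN. With lists of equal length GFI1 lost 2 with Corin, and GFI1B lost 2, 4 and 4. Counts against DMSO of GFI1B losses thus depend on weak regions. With 50 kb on each side, GFI1 had 19 regions, with gains of 3 (ATRA), 3 (Corin) and 2 (ATRA/CORIN) and losses of 0, 1 and 0. GFI1B then had 15 regions, 6 in all 4 lists, with losses of 1, 5 and 4 and 1 gain with ATRA/CORIN, in a smaller window. In that window the fold ratio counts at GFI1 were 1 higher and 0 lower for Corin, 0 lower for ATRA/CORIN over DMSO and 0 lower over Corin, and at GFI1B 0 lower for ATRA, 1 lower for ATRA/CORIN over DMSO and 0 lower over Corin. With pileup over the list's most frequent background in place of fold, medians moved to 1.51 (ATRA), 0.890 (Corin) and 1.03 (ATRA/CORIN) over DMSO, 0.650 over ATRA and 1.14 over Corin. Relative to these, GFI1 counts were 5 higher with ATRA, 2 lower with Corin, 2 higher and 4 lower with ATRA/CORIN over DMSO, 1 higher and 0 lower over ATRA and 3 lower over Corin, and GFI1B counts were 4 lower with ATRA and 3 higher with ATRA/CORIN over ATRA. The region 39.7 kb downstream of GFI1 then had an ATRA ratio of 6.95, and that 26.9 kb downstream 2.43. The cause of these shifts was not tested. Read depth per sample is unknown, so what it limits was not measured.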

Other observations

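Regions of neighbouring genes inside the GFI1B window had their own order of folds, and the regions named here were chosen after their values were seen. In TSC1, which encodes hamartin, an inhibitor of mTOR signalling, the region 76.6 kb upstream of the main GFI1B start had folds of 9.42 with DMSO, 12.6 with ATRA, 5.31 with Corin and 4.62 with ATRA/CORIN. In introns of GTF3C5, a subunit gene of the transcription factor TFIIIC, the region 70.0 kb downstream had 7.55, 9.59, 3.92 and 3.75, and that 62.4 kb downstream had 7.39, 9.79 and 3.89 and no call with ATRA/CORIN. Both lists with Corin were lower than both without it at the first 2 regions, and at the last Corin was lower than DMSO and ATRA. The Corin ratios to DMSO of 0.563, 0.518 and 0.526 compare with medians of 0.860, 0.860 and 0.842 for regions of the same strength, of which 14.4%, 10.4% and 8.85% had a lower ratio.

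At the far end of the GFI1B window, 110.8 kb downstream, the order went with ATRA instead, with folds of 4.53, 2.67, 4.42 and 2.74. The ATRA ratio of 0.590 was lower than that of 98.1% of regions of that strength. In the GFI1 window the region 110.4 kb downstream, in an RPAP2 intron, had folds of 6.52, 4.94, 3.89 and 3.88 and was highest with DMSO.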
